A study of Homo sapiens with 6 samples.

Results

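The growth factors of the transforming growth factor beta (TGF-beta) superfamily are secreted dimers, and 10 of their genes were followed here: GDF15, GDF11, INHBA, INHBB, TGFB1, TGFB2, TGFB3, BMP2, BMP4 and BMP6. They were found by gene symbol among the 58051 genes of the count table, and each symbol matched 1 Ensembl gene. GDF15 was chosen by its count in siSURF2 against siSCR libraries, that is partly because it was higher after knockdown of SURF2, so its values are given as a description with no test, while the other 9 were taken as relatives in the same family. RNA was sequenced from 6 polyA libraries of U2OS, an established human osteosarcoma cell line, 3 treated with an siRNA against SURF2 (siSURF2) and 3 with a scrambled siRNA (siSCR). In both groups cells grew with 10% serum and were transfected 2 times, 49 h apart, with harvest at 96 h, and no batch is named. Nothing in the labels ties the replicates to separate cultures, and the spread behind each p-value may therefore be technical. Counts assigned to genes were 18151554 to 19688089 in siSURF2 libraries and 17123333 to 19573786 in siSCR libraries. SURF2 itself was at 3.50 ± 0.276 CPM in siSURF2 cells and 34.8 ± 2.11 CPM in siSCR cells (CPM are counts scaled to 1e6 per library, with SD and n = 3 each). The siSURF2 replicate 2 stood further from its group (a chi-square over genes of 7.96 and 9.19 per degree of freedom, set against replicates 1 and 3) than any siSCR library from another (2.38 to 4.11), and results are given without it where it mattered.

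TGF-beta superfamily ligands are made as precursors, cut by furin-like proteases and bound by pairs of type I and type II receptor kinases on the cell surface. TGF-betas, activins and GDF11 signal mainly through SMAD2 and SMAD3, and BMPs mainly through SMAD1, SMAD5 and SMAD9, each with SMAD4. GDF15 is a divergent member that is released by stressed cells and acts on appetite through GFRAL, a receptor of the hindbrain that signals with RET, and its gene is a known target of the ATF4 and CHOP arm of the integrated stress response. In bone, BMP2, BMP4 and BMP6 drive osteoblast differentiation, and TGFB1 is stored in the matrix in latent form.

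The stretch of 250 bases before the RefSeq start site is shown for GDF15, the member with the largest difference, and for BMP4, the member with the highest level per kilobase among those called higher in siSURF2 cells. Sequences are from RefSeq (GRCh38.p14), read 5′ to 3′ on the strand of the gene. Those of GDF15 (chr19:18385908-18386157, plus strand) and BMP4 (chr14:53955051-53955300, minus strand, the most upstream of 3 listed starts) are:
GDF15: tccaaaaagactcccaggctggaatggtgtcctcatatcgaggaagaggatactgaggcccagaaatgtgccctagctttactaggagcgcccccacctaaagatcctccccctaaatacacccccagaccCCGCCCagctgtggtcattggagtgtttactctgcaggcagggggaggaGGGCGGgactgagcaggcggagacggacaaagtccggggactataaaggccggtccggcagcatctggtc
BMP4: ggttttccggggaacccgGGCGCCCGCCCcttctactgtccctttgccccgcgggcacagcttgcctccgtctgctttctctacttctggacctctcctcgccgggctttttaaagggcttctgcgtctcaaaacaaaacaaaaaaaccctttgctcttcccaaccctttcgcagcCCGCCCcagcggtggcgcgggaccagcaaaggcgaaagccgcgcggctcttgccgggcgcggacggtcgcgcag
Capitals mark every match, on either strand, to 4 motifs: GGGCGG (GC box), GGCGCC (a GC-rich SMAD element), TGATGNAA (the C/EBP-ATF response element) and TGANTCA (AP-1). GDF15 held 2 GC boxes, which begin at positions -119 and -70 from the start, and no match to the other 3 motifs in this window. BMP4 held 2 GC boxes and 1 GC-rich SMAD element, which overlaps 1 of those GC boxes in the printed capitals. Across 35116 listed promoters of the same length, 42.6% held a GC box, 16.4% the SMAD element, 6.57% the AP-1 motif and 3.14% the C/EBP-ATF motif. A match is a string of letters and says nothing of binding. GENCODE release 29 also lists GDF15 transcripts that start further upstream, whose exons cover 241 of the 250 bases printed for GDF15.

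GDF15 mRNA was low in control cells and several-fold higher after SURF2 knockdown. GDF15 (ENSG00000130513, chromosome 19, 18374731 to 18389176 on the plus strand of GRCh38) was at 19.0, 20.1 and 19.7 CPM in siSURF2 replicates 1, 2 and 3, against 5.18, 3.90 and 3.90 CPM in siSCR replicates 1, 2 and 3. Every siSURF2 library lay above every siSCR library, and the spread within the siSURF2 group was small. The raw counts behind these levels were 345, 389 and 395 in siSURF2 cells and 87, 73 and 76 in siSCR cells. The means were 19.6 ± 0.568 CPM in siSURF2 cells and 4.33 ± 0.736 CPM in siSCR cells (SD, n = 3 each), a ratio of 4.53. The log2 fold change was 2.19 ± 0.12 (SE of the edgeR fit), rank 90 from the highest among the 17561 genes tested. Over 16 other ways of processing the counts, the log2 fold change of GDF15 ran from 2.11 to 2.32. In bulk RNA, more cells that express a gene and more RNA per cell cannot be told apart, which holds for all values here.

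Of the other 9 members, 8 had enough counts to be tested: 4 rose, 3 fell and 1 was not called with siSURF2 (p from the quasi-likelihood F-test of edgeR, adjusted by Benjamini-Hochberg over all genes, under 0.05). Over all genes tested 52.0% were called, 25.8% as higher and 26.2% as lower, so calls in both directions are the common case in these libraries. The median log2 fold change of these 8 members, without GDF15, was 0.0076, beside 0.0042 over all genes tested.

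**Figure D1:**
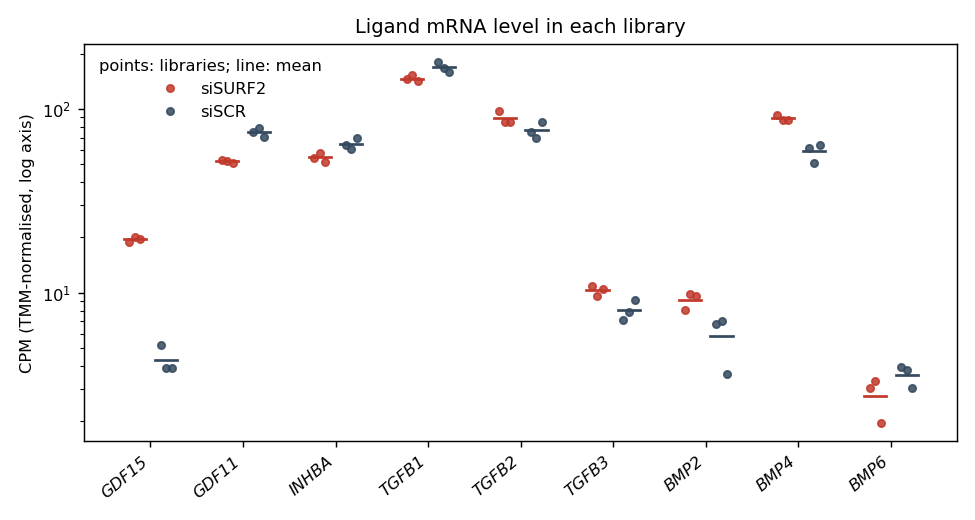
TMM-normalised level (CPM, log axis) of the 9 tested ligand mRNAs in each library, with siSURF2 in red left of siSCR in dark blue, points for libraries and lines for the mean of 3. The 3 GDF15 points of siSURF2 sit between 19.0 and 20.1 CPM, all above the siSCR points, while those of TGFB2 and BMP6 overlap between the groups.

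Among the BMPs, which are ligands of the SMAD1 and SMAD5 branch, BMP4 and BMP2 rose and BMP6 did not pass the test. BMP4 (ENSG00000125378, chromosome 14, 53949736 to 53958761, minus strand) was at 92.9, 87.1 and 87.4 CPM in siSURF2 replicates 1 to 3, against 61.5, 51.0 and 63.8 CPM in siSCR replicates 1 to 3. The groups did not overlap, as in 57.3% of all genes tested. The log2 fold change of BMP4 was 0.60 ± 0.07 (SE, adjusted p = 2.8e-08). BMP2 (ENSG00000125845, chromosome 20, 6767664 to 6780280, plus strand) was at 8.08, 9.81 and 9.65 CPM in siSURF2 cells, against 6.78, 7.06 and 3.59 CPM in siSCR cells. All siSURF2 libraries lay above all siSCR libraries, and siSCR replicate 3 lay well below the other siSCR libraries. The log2 fold change of BMP2 was 0.67 ± 0.18 (adjusted p = 0.0058), and it was 0.40 without siSCR replicate 3, still past the threshold. BMP6 (ENSG00000153162, chromosome 6, 7726797 to 7881422, plus strand) had 3.02, 3.30 and 1.95 CPM in siSURF2 cells, against 3.93, 3.80 and 3.03 CPM in siSCR cells. Its groups overlapped, and the log2 fold change of -0.38 ± 0.20 had an adjusted p of 0.13.

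The TGF-beta isoforms, which share receptors and the SMAD2 and SMAD3 branch, went different ways. TGFB1 (ENSG00000105329, chromosome 19, 41301587 to 41353911, minus strand), the isoform with the highest level in these cells, was at 145.8, 152.5 and 141.4 CPM in siSURF2 replicates 1 to 3, against 180.3, 167.0 and 159.4 CPM in siSCR replicates 1 to 3. All siSURF2 libraries lay below all siSCR libraries, by a small margin. The log2 fold change of TGFB1 was -0.20 ± 0.05 (adjusted p = 0.0020). Its exons share 215 bases with HNRNPUL1 on the opposite strand, and since no source used here states whether counting used strand, reads of that stretch cannot be told apart. TGFB2 (ENSG00000092969, chromosome 1, 218346235 to 218444619, plus strand) was at 97.4, 84.9 and 85.5 CPM in siSURF2 cells, against 74.7, 69.9 and 85.2 CPM in siSCR cells. The highest siSCR library of TGFB2 lay among the siSURF2 libraries. Its log2 fold change was 0.22 ± 0.07 (adjusted p = 0.0092), but the adjusted p was 0.064 without siSURF2 replicate 1, 0.066 without siSCR replicate 1 and 0.070 without siSCR replicate 2. TGFB3 (ENSG00000119699, chromosome 14, 75958099 to 75982991, minus strand) was at 10.9, 9.60 and 10.5 CPM in siSURF2 cells, against 7.14, 7.86 and 9.14 CPM in siSCR cells. The groups of TGFB3 did not overlap, with a narrow gap between them. Its log2 fold change was 0.36 ± 0.12 (adjusted p = 0.013), and the adjusted p was 0.051 without siSURF2 replicate 1 and 0.089 without siSCR replicate 1.

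INHBA and GDF11 both fell, while INHBB could not be tested. INHBA (ENSG00000122641, chromosome 7, 41667168 to 41705834, minus strand), whose product dimerises to activin A, was at 54.3, 57.5 and 51.7 CPM in siSURF2 cells, against 63.6, 60.5 and 69.6 CPM in siSCR cells. The groups of INHBA did not overlap, and its log2 fold change was -0.25 ± 0.06 (adjusted p = 0.0016). GDF11 (ENSG00000135414, chromosome 12, 55743280 to 55757278, plus strand), a close relative of myostatin, was at 52.6, 52.2 and 51.0 CPM in siSURF2 cells, against 74.8, 79.1 and 70.2 CPM in siSCR cells. The siSURF2 libraries of GDF11 lay close together and well below the siSCR libraries. GDF11 fell by 0.52 ± 0.06 (adjusted p = 1.6e-08), and 386 bases of its exons overlap SARNP on the opposite strand, whose reads cannot be told apart there. INHBB (ENSG00000163083, chromosome 2, 120346143 to 120351808, plus strand), which encodes another activin subunit, had 5, 4 and 7 counts in siSURF2 replicates 1 to 3, against 0, 3 and 3 counts in siSCR replicates 1 to 3. These few counts did not pass the filter for the test, so no difference can be given for INHBB. INHBE, an activin subunit gene outside the members, was named after its values were seen. It was at 1.77 ± 0.197 CPM in siSURF2 cells and 1.66 ± 0.212 CPM in siSCR cells. It was not called (log2 fold change 0.08 ± 0.25, adjusted p = 0.80).

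**Figure D2:**
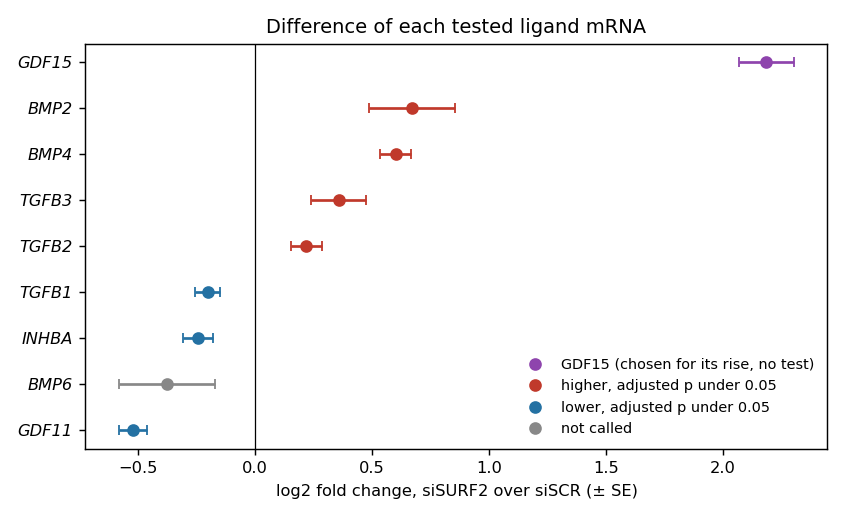
Log2 fold change (siSURF2 over siSCR, x axis, with SE bars of the edgeR fit) of the 9 tested ligand genes. GDF15 lies at 2.19, with no test, BMP2 and BMP4 follow at 0.67 and 0.60, and GDF11 is lowest at -0.52.

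To compare levels between genes, CPM was divided by the length of the merged exons in kilobases. On this scale of CPM per kb, the order in siSURF2 cells was TGFB1 (45.3 ± 1.73), BMP4 (28.9 ± 1.07), TGFB2 (17.3 ± 1.37), GDF15 (9.39 ± 0.272), INHBA (6.57 ± 0.352), GDF11 (6.003 ± 0.097), BMP2 (2.55 ± 0.264), TGFB3 (2.11 ± 0.136), BMP6 (0.993 ± 0.257) and INHBB (0.0865 ± 0.0224). No neighbours in that order overlapped over the 3 siSURF2 libraries. In siSCR cells TGFB1 (52.2 ± 3.27), BMP4 (19.1 ± 2.22) and TGFB2 (14.9 ± 1.51) led as well, followed by GDF11 (8.63 ± 0.513), INHBA (7.78 ± 0.559) and GDF15 (2.07 ± 0.353). There GDF11 overlapped INHBA, TGFB3 (1.64 ± 0.206) overlapped BMP2 (1.61 ± 0.535), and BMP2 overlapped BMP6 (1.29 ± 0.175). GDF15 thus had rank 4 of the members in siSURF2 cells and rank 6 in siSCR cells. Its level per kb depends on the length used: with the longest single transcript it was 16.3 CPM per kb in siSURF2 cells and 3.61 CPM per kb in siSCR cells, since the merged exons of GDF15 join those of several transcripts to 2087 bases, while its longest transcript has 1200 bases. By that length TGFB3 stood above BMP2 in siSURF2 cells (3.82 and 2.55 CPM per kb), and INHBA stood above GDF11 in siSCR cells (10.6 and 8.63 CPM per kb).

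The makeup of the summed mRNA of the 10 members can be read from the same scale. Ligands outside the members are left out of it, such as BMP5, at 15.2 CPM per kb in siSURF2 cells and 12.5 in siSCR cells. GDF15 made up 7.48%, 7.99% and 8.17% of the summed level of the 10 members in siSURF2 replicates 1 to 3, against 2.18%, 1.78% and 1.72% in siSCR replicates 1 to 3. TGFB1 made up 38.0 ± 1.05% of it in siSURF2 cells and 47.8 ± 2.21% in siSCR cells (SD, n = 3 each), and BMP4 24.3 ± 0.693% in siSURF2 cells and 17.4 ± 1.63% in siSCR cells. The ratio of BMP4 to TGFB1 per kb was 0.67, 0.60 and 0.65 in siSURF2 cells, against 0.36, 0.32 and 0.42 in siSCR cells. Neither share nor ratio depends on how libraries are scaled, but both depend on the gene length used. With the longest transcript, BMP4 and TGFB1 were at 46.5 and 52.9 CPM per kb in siSURF2 cells. In siSCR cells they were then at 30.7 and 61.0 CPM per kb. The summed level of BMP2, BMP4 and BMP6 was 32.5 ± 0.914 CPM per kb in siSURF2 cells and 21.97 ± 1.84 CPM per kb in siSCR cells, while that of the 3 TGF-beta isoforms was 64.7 ± 2.02 CPM per kb in siSURF2 cells and 68.7 ± 2.61 CPM per kb in siSCR cells.

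**Figure D3:**
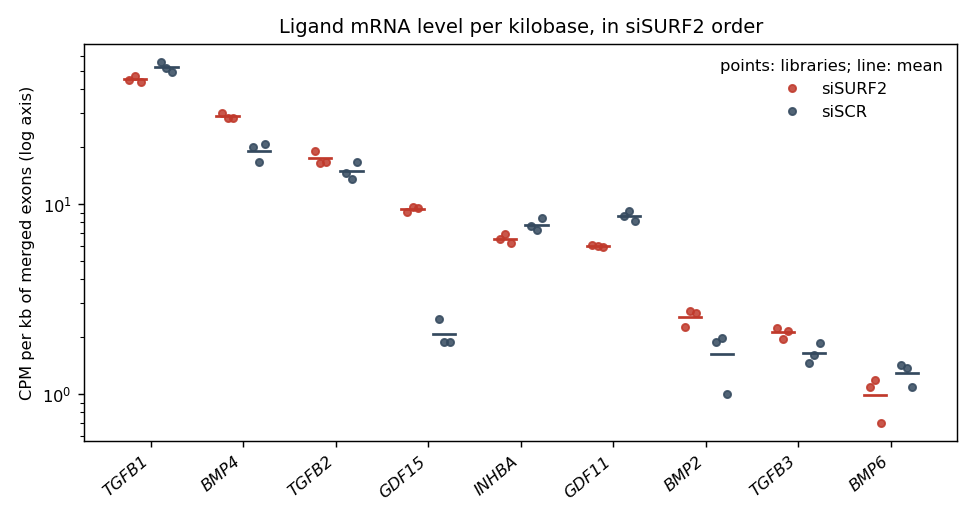
Level per kilobase of merged exons (CPM per kb, log axis) of 9 ligand mRNAs, ordered by their mean in siSURF2 cells, with siSURF2 in red left of siSCR in dark blue, points for libraries and lines for means. GDF15 has rank 4 with siSURF2, at 9.39 CPM per kb, and at 2.07 CPM per kb with siSCR; INHBB, with 0 counts in 1 library, is not drawn.

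The genes whose profile over the 6 libraries was most like that of GDF15 were sought among 12144 other protein-coding genes, by the root mean square difference of log2 CPM, each gene centred on its own mean. The closest was SOX5 (0.083), a transcription factor, at 4.63 ± 0.335 CPM in siSURF2 cells and 0.992 ± 0.186 CPM in siSCR cells. GXYLT2 (0.13), FAM13C (0.13), ADCY1 (0.14), an adenylate cyclase, and NRP1 (0.15), a co-receptor of semaphorins and VEGF, came next. For BMP2 the closest profile was that of ODAD3 (0.046), followed by P2RX5, SLAMF7, RNF103-CHMP3 and HORMAD1 (0.13 to 0.15). For BMP4 it was WWOX (0.031), followed by TBC1D8B, LSR, TSC22D3 and MMP14 (0.040 to 0.045). These distances describe 6 libraries in 2 groups, so likeness is mainly a like difference between the groups.

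Of 4 transcription factors known to induce GDF15, DDIT3 rose, EGR1 fell and ATF4 and ATF3 did not pass the test. Beside this, 52.0% of all genes tested were called, 25.8% as higher and 26.2% as lower. DDIT3, which encodes CHOP, rose by 0.53 ± 0.11 (adjusted p = 1.4e-04), at 16.1 ± 2.30 CPM in siSURF2 cells and 11.2 ± 0.756 CPM in siSCR cells. EGR1, an immediate-early factor, fell by 1.71 ± 0.22 (adjusted p = 0.0019). ATF4 had a log2 fold change of -0.11 ± 0.05 (adjusted p = 0.054), which passed the threshold in 6 of 16 other settings, among them DESeq2 (0.044) and the fits without siSURF2 replicate 2 (0.012), siSCR replicate 1 (0.045) and siSCR replicate 3 (0.041). ATF3 was at 32.1 ± 0.666 CPM in siSURF2 cells and 32.0 ± 1.02 CPM in siSCR cells.

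Of 23 further ligands of the superfamily, 6 had enough counts to test, of which 2 rose and 2 fell, and 6 had no count in any library. Among those tested 66.7% were called, beside 52.0% over all genes tested. BMP7, an osteogenic BMP, was at 25.5, 25.5 and 24.1 CPM in siSURF2 cells, against 16.8, 16.4 and 14.1 CPM in siSCR cells, and rose by 0.67 ± 0.08 (adjusted p = 1.2e-07). BMP5 was at 59.9 ± 0.743 CPM in siSURF2 cells and 49.4 ± 2.60 CPM in siSCR cells, and rose by 0.28 ± 0.06 (adjusted p = 2.5e-04). GDF7 fell to 2.44 ± 0.446 CPM in siSURF2 cells, against 6.38 ± 0.171 CPM in siSCR cells. AMH fell by 0.63 ± 0.25 (adjusted p = 0.039), but its adjusted p was 0.14 and 0.088 without siSURF2 replicates 1 and 3, and 0.11 and 0.13 without siSCR replicates 1 and 2, at 1.35 ± 0.227 CPM in siSURF2 cells and 2.11 ± 0.356 CPM in siSCR cells.

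Of 15 tested receptors and co-receptors, 4 rose, 3 fell and 8 were not called, with a median log2 fold change of -0.07. The share called was 46.7%, near the 52.0% over all genes tested. RGMA, a BMP co-receptor, rose by 1.00 ± 0.10 (adjusted p = 3.4e-09), at 15.9 ± 0.874 CPM in siSURF2 cells and 7.96 ± 0.431 CPM in siSCR cells. ACVR2B, a type II receptor that binds activins and GDF11, was at 49.7, 46.2 and 44.8 CPM in siSURF2 cells, against 24.6, 25.0 and 29.3 CPM in siSCR cells, a log2 fold change of 0.83 ± 0.07 (adjusted p = 1.4e-10). ACVR1B, the type I activin receptor, rose by 0.24 ± 0.07. ENG, TGFBR3 and RGMB, all co-receptors, fell by 0.34 ± 0.09, 0.25 ± 0.08 and 0.35 ± 0.13 (adjusted p of 0.0033, 0.010 and 0.024). These calls were fragile: the adjusted p of ENG was 0.057 without siSCR replicate 2, that of TGFBR3 0.081 without siSURF2 replicate 3 and 0.080 without siSCR replicate 3, and that of RGMB 0.15 and 0.069 without siSURF2 replicates 1 and 2 and 0.14 and 0.070 without siSCR replicates 1 and 2. The count of receptors called lower was 1 without siSCR replicate 2. GFRAL, the GDF15 receptor, had 1 count in all, in siSCR replicate 3, and was looked up after the values were seen.

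Genes that bind, store or process ligands went both ways. Of 9 tested antagonists, 4 rose and 4 fell, with a median of -0.11. The share called was 88.9%, beside 52.0% over all genes tested. NOG, which encodes the BMP antagonist noggin, was at 55.8, 63.1 and 65.1 CPM in siSURF2 cells, against 37.3, 35.7 and 34.8 CPM in siSCR cells (log2 fold change 0.77 ± 0.07, adjusted p = 7.8e-11). BAMBI, a decoy receptor, rose by 1.27 ± 0.16 and TWSG1, a modulator of BMP binding, by 0.22 ± 0.06. FSTL3, which binds activins and GDF11, was at 141 ± 7.45 CPM in siSURF2 cells and 217 ± 10.9 CPM in siSCR cells and fell by 0.62 ± 0.05 (adjusted p = 8.2e-11). NBL1 and BMPER, which bind BMPs, fell by 0.81 ± 0.08 and 1.70 ± 0.39. BMPER was low in both groups, and its fall rests on few counts. It had 7, 4 and 12 counts in siSURF2 replicates 1 to 3, against 25, 28 and 19 in siSCR replicates 1 to 3. Under a stricter low-count cutoff BMPER was not tested, and 3 antagonists were then called lower.

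Of 13 tested genes of latency, processing and activation, 8 rose and 3 fell, with a median of 0.27. In this list 84.6% were called, 61.5% as higher, beside 52.0% and 25.8% over all genes tested. The latent TGF-beta binding proteins LTBP1, LTBP2 and LTBP3 rose by 1.68 ± 0.14, 0.90 ± 0.06 and 0.73 ± 0.06 (largest adjusted p of the 3 = 9.7e-11). LTBP1 was at 10.0, 11.2 and 10.2 CPM in siSURF2 cells, against 3.69, 2.57 and 3.54 CPM in siSCR cells. FURIN, which cuts the precursors and was singled out after its values were seen, was at 108 ± 2.77 CPM in siSURF2 cells and 69.6 ± 4.92 CPM in siSCR cells. THBS1, an activator of latent TGF-beta, fell by 0.52 ± 0.07 (adjusted p = 1.4e-07). LRRC32, which tethers latent TGF-beta to the cell surface, had 1 count over the siSURF2 libraries and 55 over the siSCR libraries, a ratio of 0.017 (95% exact binomial interval 0.00043 to 0.10, counting error only). ITGAV, an integrin subunit of activating receptors, passed narrowly (-0.19 ± 0.07, adjusted p = 0.042), and not without siSURF2 replicates 1, 2 or 3 (0.085, 0.069 and 0.14) or without siSCR replicate 3 (0.16).

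**Figure D4:**
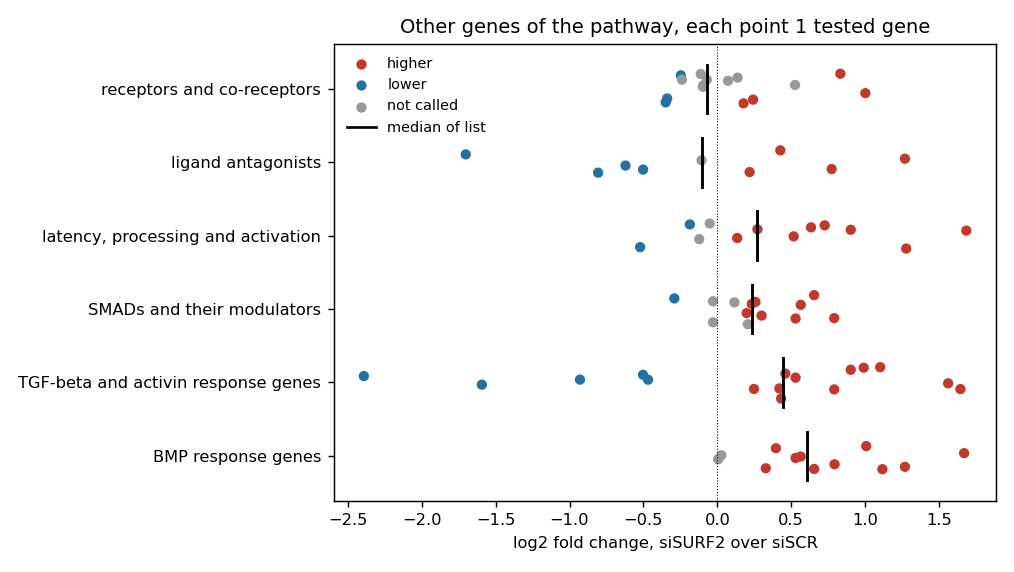
Log2 fold change (siSURF2 over siSCR, x axis) of the tested genes of 6 lists of the pathway, with 1 point per gene, red for higher, blue for lower and grey for not called, and a black line at the median of each list. BMP response genes lie at or above 0 with a median of 0.61, while TGF-beta and activin response genes lie on both sides of 0; LRRC32, with 1 count in siSURF2 cells, is not drawn but counts in its list's median.

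Of 13 SMADs and modulators, 8 rose, 1 fell and 4 were not called, with a median log2 fold change of 0.23, beside 25.8% called higher over all genes tested. With scaling by spike-in RNAs none of the 13 was called in either direction. SKIL, a nuclear repressor of SMADs, rose by 0.79 ± 0.07, and the inhibitory SMADs SMAD6 and SMAD7 by 0.65 ± 0.06 and 0.53 ± 0.08 (largest adjusted p of the 3 = 4.0e-06). ZFYVE9, an anchor that presents SMAD2 and SMAD3 to receptors, fell by 0.29 ± 0.07 (adjusted p = 0.0015).

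Of 12 tested BMP response genes, 10 rose, none fell and 2 were not called, with a median of 0.61, beside 25.8% called higher over all genes tested. ID1, an inhibitor of differentiation factors and a direct SMAD1 and SMAD5 target, was at 370.0, 384 and 436 CPM in siSURF2 replicates 1 to 3, against 189, 169.8 and 189.9 CPM in siSCR replicates 1 to 3. ID4, of the same family, was at 22.2, 20.0 and 24.4 CPM in siSURF2 cells, against 7.97, 6.74 and 6.31 CPM in siSCR cells. SMAD6, given above, also stands among them. Neither ID gene overlapped between groups, and their log2 fold changes were 1.12 ± 0.06 and 1.67 ± 0.11 (adjusted p of 3.6e-14 and 2.4e-13). The 2 genes not called, ATOH8 and MSX2, named after their values were seen, were at 4.81 ± 0.440 and 4.11 ± 0.207 CPM in siSURF2 cells, and at 4.71 ± 0.0972 and 4.11 ± 0.671 CPM in siSCR cells. Leaving out any 1 library left 9 or 10 of the list higher, and SMAD6, SMAD7, SMAD9 and BAMBI stand in other lists here as well.

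All 16 tested TGF-beta and activin response genes were called, 11 higher and 5 lower, with a median of 0.45. Over all genes tested 52.0% were called, 25.8% as higher and 26.2% as lower. The counts of this list held with each library left out. Its genes SKIL, SMAD7, LTBP2 and COL1A1, all called higher, stand in other lists here as well. ACTA2, smooth muscle actin, rose by 1.64 ± 0.12, PMEPA1, a feedback inhibitor of SMAD signalling, by 0.99 ± 0.06 and LTBP2 by 0.90 ± 0.06. TAGLN, an actin-binding protein, fell by 2.39 ± 0.12 and CCN2, a matricellular protein, by 0.93 ± 0.07. Genes of this list thus lay on both sides of 0.

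**Figure D5:**
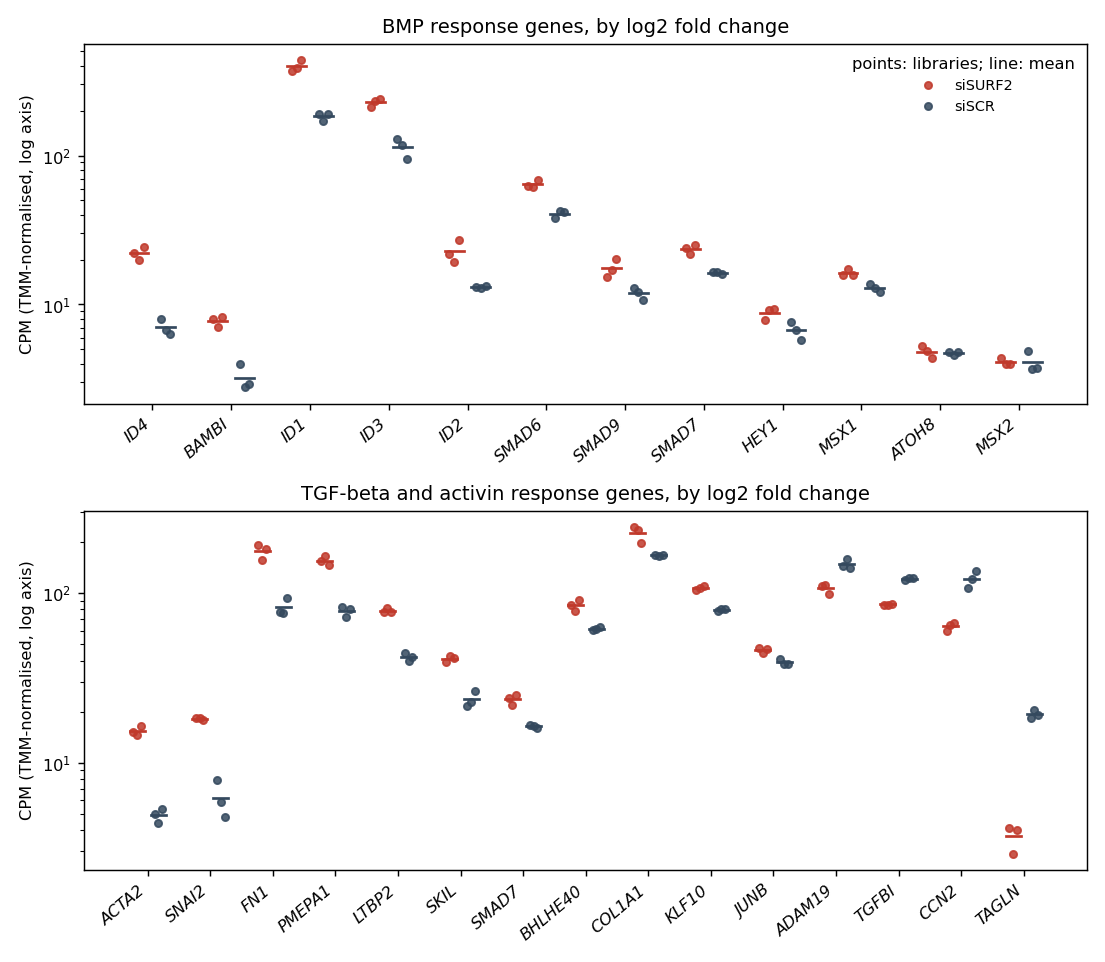
TMM-normalised level (CPM, log axis) of genes of 2 response lists in each library, 12 BMP response genes above and 15 TGF-beta and activin response genes below, ordered by log2 fold change, with siSURF2 in red left of siSCR in dark blue and lines for means. ID4, BAMBI, ID1 and ID3 have all siSURF2 points above all siSCR points, and TAGLN and CCN2 have all siSURF2 points below all siSCR points.

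Markers of cell types were measured beside these genes. Of the tested markers, 66.7% of 6 osteoblast lineage, 83.3% of 6 epithelial and 75.0% of 4 endothelial genes were called. The share over all genes tested was 52.0%, with 25.8% called higher and 26.2% lower. Of 12 osteoblast lineage markers, RUNX2, the defining factor of the lineage and looked up after the values were seen, was at 23.1 ± 1.88 CPM in siSURF2 cells and 22.8 ± 1.604 CPM in siSCR cells and was not called, PRRX1, COL1A1 and SPP1 rose by 1.17, 0.43 and 1.67, ALPL fell by 2.07, and IBSP and TWIST1 had no count. The summed level of this list was 278.2 to 315 CPM in siSURF2 cells and 219 to 228 CPM in siSCR cells. Of 6 tested epithelial markers, CLDN4 and EPCAM rose by 1.07 and 0.99 and KRT18, KRT8 and CDH1 had log2 fold changes of -0.69, -0.50 and -2.70 and were all called, with a summed level of 1037 to 1113 CPM in siSURF2 cells and 1482 to 1609.6 CPM in siSCR cells. Blood cell markers summed to 1.05 to 1.59 CPM in siSURF2 cells and 0.774 to 1.39 CPM in siSCR cells, with CD3E, HBB and LYZ at 0 and CD68 not called (adjusted p = 0.79). Endothelial markers summed to 4.49 to 5.80 CPM in siSURF2 cells and 8.15 to 9.14 CPM in siSCR cells. TEK, PECAM1 and CLDN5 fell by 2.15, 1.34 and 0.88. All were low: in siSURF2 replicates 1 to 3 TEK had 10, 9 and 9 counts, and PECAM1 11, 10 and 17. KDR and CDH5, looked up after the values were seen, had too few counts to test. KDR had 6, 1 and 3 counts in siSURF2 cells, against 0, 1 and 0 in siSCR cells. CDH5 had 0, 0 and 1 counts in siSURF2 cells, against 1, 2 and 4 in siSCR cells. VWF, named after its values were seen, was not called (adjusted p = 0.99). It was at 3.09 ± 0.357 CPM in siSURF2 cells and 3.07 ± 0.548 CPM in siSCR cells. The CLDN5 call was lost without siSURF2 replicates 1 or 2 (adjusted p of 0.079 and 0.083) and without siSCR replicates 1 or 2 (0.068 and 0.32). The part of these markers in the differences of the ligands was not tested.

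Scaling by the ERCC spike-in RNAs, in place of the counts of all genes, ended the calls of all 7 called members other than GDF15, with adjusted p from 0.16 to 0.84, while each kept its direction. With that scaling 802 genes were higher and 825 lower over the whole table, and the spike-in share ran from 1.27% to 1.72% in siSURF2 libraries and from 1.12% to 1.72% in siSCR libraries. Of the BMP response genes 4 were then called higher and 0 lower, of the TGF-beta and activin response genes 5 higher and 3 lower, and of the genes of latency, processing and activation 3 higher and 1 lower. Of the further ligands 0 were then higher and 1 lower, with an adjusted p of 0.15 for BMP7 and 0.73 for BMP5, of the receptors 1 higher and 0 lower, and of the antagonists 1 higher and 2 lower. Without siSURF2 replicate 2 and with TMM factors, 10 BMP response genes were higher, and 11 TGF-beta and activin response genes were higher and 5 lower.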

How the data were processed

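The authors deposited raw read counts per Ensembl gene, without normalization, for 6 polyA libraries of U2OS cells, 3 per group. Per the submitters' processing notes, the build was GRCh38 and STAR 2.5.2b and fastp 0.23.1 were among the tools, while no source used here names the counting tool or its strand setting. The 92 ERCC rows were kept out of library sizes. Coordinates, exon lengths and overlaps are from GENCODE release 29 (GRCh38).

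The low-count filter of edgeR 4.0.16 (filterByExpr, at least 10 counts, total at least 15) kept 17561 genes, which were TMM-normalised and tested in R 4.3.3 by a robust quasi-likelihood fit on group alone. P-values were adjusted by Benjamini-Hochberg over these genes, and 0.05 was the threshold. The SE of a log2 fold change is its size (no prior count) divided by the root of its F. A library gave 16.8 to 20.0 counts per CPM, so low genes rest on few counts. The test was also run on simulated counts with the same spread in every gene and no library that stood apart. That run therefore does not cover the spread between these replicates.

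The members and the 12 other gene lists were chosen with earlier results of these data known. Named from each list were at most 3 called genes in each direction, taken by smallest adjusted p, or the single best gene of a list with no call, and the factors that induce GDF15. Some results of these lists are not reported here. The 5 profiles most like GDF15 and the 2 called members of largest log2 fold change were sought among protein-coding genes whose mean log2 CPM reached 1. Alternatives were other normalization factors, ERCC scaling, other filters, DESeq2 1.42.0, limma-voom (limma 3.58.1), a non-robust prior, the replicate number as a block, leaving out each library and the longest transcript as gene length.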

Additional observations from a re-analysis of the deposited data

Results flagged for a closer look

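MIR3189, a microRNA gene that lies in an intron of GDF15 on the same strand, had 3, 1 and 4 counts in siSURF2 replicates 1 to 3, 8 in all, and 0 counts in each siSCR library. It was singled out because it is a signal in a row that no test used, with no count in the control libraries. Its mature products, from RefSeq (GRCh38.p14), with the seed (bases 2 to 8) in capitals, are:
hsa-miR-3189-5p: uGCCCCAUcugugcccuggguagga
hsa-miR-3189-3p: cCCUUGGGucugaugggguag
PolyA libraries do not measure mature microRNAs, so these counts are reads of the hairpin region. Of 19819 genes with some count that did not pass the filter, 50 had at least 8 counts over the siSURF2 libraries and 0 in siSCR cells, as MIR3189 did, and 76 had 0 in siSURF2 cells and at least 8 in siSCR cells.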

How the results depend on the processing

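Over 16 alternatives, no tested member or pathway gene changed its direction while being called. With ERCC spike-in scaling, 802 genes were higher and 825 lower, against 4535 and 4596 with TMM factors, and of the members other than GDF15 0 were higher and 0 lower, against 4 and 3; among all 17561 genes the median log2 fold change moved by -0.039. Leaving out 1 library gave 2 to 4 members higher, 2 of them lost without siSURF2 replicate 1 or siSCR replicate 1 (TGFB2 and TGFB3), and 3 members lower in each case. The number of members at 1 CPM per kb or more was 8 in siSURF2 cells and 9 in siSCR cells. With the replicate number as a block, 4 members were higher and 3 lower, as without it, and 9028 genes were called in all, against 9131. Libraries with the same number correlated at 0.031, -0.11 and -0.0013 in their deviations from the group means. Those with unlike numbers correlated at -0.157 to 0.175. With 3 libraries a group, these values cannot settle whether the numbers pair the libraries. INHBB, at 0 to 7 counts a library, is limited by depth.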
